A study of Danio rerio with 72 samples.

Results

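The genes described here encode the proteasome of the zebrafish. They were taken as every probe set (a group of short probes that reads 1 transcript) whose single annotated gene symbol begins with psm, then one of the letters a to g and a digit. This rule found 50 of the 8793 genes that the array names singly, read by 61 of its 15502 probe sets, and 53 of these probe sets, of 44 genes, were bright enough to be tested, that is, above their array's median on at least 3 arrays. Expression was read on 72 Affymetrix arrays in 19 groups, each made from posterior PSM (presomitic mesoderm, the tissue from which somites form) of embryos at the 12-somite stage raised at 24 °C. Each group had 4 arrays but for 3 groups: RA at 3 h and DAPT at 1.5 h held 3 arrays each, DAPT at 3 h only 2.

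In the heat-shock groups a heat-inducible promoter drove each transgene, and there was no unshocked control among them. A shock of 37 °C for 30 min was given to wild-type AB embryos and to Tg(hsp701;dnfgfr1-EGFP), which carries a dominant-negative Fgf receptor, both dissected 30 min or 1 h later. The same shock with dissection 1 h later was used for Tg(hsp:70:dkk1-gfp), with the secreted Wnt inhibitor dkk1, for Tg(hsp:70:wnt8a-gfp), with a Wnt ligand, and for Tg(hsp:70:DeltaTcF-gfp). A shock of 1 h was given to Tg(hsp70;gal4VP16), the control, and to its cross with Tg(UAS:myc-notch1a-intra), in which gal4 drives the intracellular domain of Notch, with dissection 45 min or 90 min later. The other groups received no shock: embryos were kept in retinoic acid (RA), in the gamma-secretase inhibitor DAPT or in DMSO alone for 1.5 h or 3 h. Arrays of a group are biological replicates per the labels, which name no shared clutch, day or batch, so the p-values measure the spread between these samples.

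The proteasome is the barrel-shaped protease that degrades proteins tagged with ubiquitin. Its core particle is built from rings of alpha subunits, which gate the entrance, and rings of beta subunits, of which psmb5, psmb6 and psmb7 encode the cutting ones. A regulatory particle, with a ring of ATPases (psmc genes) and a set of non-ATPase subunits (psmd genes), binds and unfolds the substrate, and dedicated chaperones (psmg1, psmg2, psmg3, psmd5, psmd9 and psmd10) help the particles to assemble. In mammals most of these genes are transcribed together when proteasome activity falls short, and heat shock adds damaged proteins to its substrates.

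By role, the 61 probe sets comprised 8 for the alpha ring, 7 for the standard beta ring, 5 for the inducible beta subunits of the immunoproteasome, 9 for the ATPase ring and 13 for the non-ATPase subunits. Another 8 read assembly chaperones, 3 read activator subunits (psme1, psme2 and psme3) and 2 read psmf1, an inhibitor of the core. The remaining 6 match the symbol rule only by name: psmc3ip encodes a partner of meiotic recombination and psme3ip1 a protein that binds psme3, and neither is a subunit. Of the 9 ATPase probe sets 8 were tested, of the 8 alpha probe sets 7, and all of the standard beta, non-ATPase and chaperone sets.

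The 8 probe sets that failed the brightness filter stayed near the bottom of the log2 scale, which lies at 4, with means over all 72 arrays between 4.15 and 4.93. They were psma6l, 1 of 3 probe sets of psmc1b, 1 of 2 of psmc3ip, the activator psme1 and 4 immunoproteasome genes, psmb8a (4.43), psmb9a (4.54), psmb12 (4.69) and psmb13a (4.41). Only psmb10 of the inducible beta genes was tested, with a mean of 6.07. Some that passed were above their array's median on only part of the 72 arrays: psme2 on 10, the dimmer psmf1 set on 3, 1 psme3ip1 set on 43 and the dimmer psmd9 set on 61. Levels below are log2 of the quantile-normalised signal plus 16. They are compared only within a probe set, because probes differ in how well they bind. Summed marker signals instead add the deposited intensities of each gene's brightest probe set, without log2 or normalisation, so the brightest markers weigh most. Near-identical copies such as psma2a and psma2b or psmc1a and psmc1b may share signal.

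Some libraries went against their labels. The libraries labelled DeltaTcf had a dkk1b level of 12.81 ± 0.09 (SD, n = 4), close to the 13.05 ± 0.08 of the dkk1 libraries, whereas wild type at 1 h had 5.44 ± 0.51 and wnt8a 5.53. The Wnt target axin2 had a mean of 9.22 in wild type at 1 h, 5.68 in dkk1, 5.83 in the libraries labelled DeltaTcf and 8.08 in wnt8a, so it was lower in wnt8a libraries too. At 45 min the notch1a level of the notch1a-intra libraries was 11.64 and 11.82 in replicates 1 and 3 but 7.998 and 8.29 in replicates 2 and 4, near the gal4 mean of 7.67. The mesoderm markers tbx16 (group means 9.32 to 11.86) and msgn1 (11.99 to 12.74) were high in every group, and all 13 PSM and tail-bud markers were bright enough to be tested. In bulk tissue fewer cells of a type and less RNA per cell cannot be told apart.

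Members differed in how far their group means spread over the 19 groups. The group means of psmd4a, a ubiquitin receptor of the regulatory particle, spanned 0.38 on the log2 scale, and those of the ATPase psmc4 spanned 0.39. The widest spans belonged to the chaperone psmd10 (1.58, from 6.59 in notch1a-intra at 45 min to 8.17 in wnt8a) and the activator psme3 (1.54, from 8.76 in gal4 at 90 min to 10.30 in RA at 3 h). Next came psmd11b, a non-ATPase subunit (1.47, from 8.17 in gal4 at 90 min to 9.63 in DAPT at 3 h), and the chaperone psmg3 (1.42, from 6.81 in dnfgfr1 at 30 min to 8.23 in DAPT at 1.5 h). DAPT at 1.5 h held the highest group mean for 20 of 53 members, against 6.53% of all tested probe sets. The lowest was held by dkk1 for 8, against 8.38%, and by wild type at 1 h for 7, against 2.07%. The DMSO control of that DAPT group held the highest for 5, against 4.26%. Shocked and unshocked groups belong to different experiments, so these orders are descriptions without a test.

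Each array was also summarised by the median over the 53 members of their distance from their own mean. This value was -0.08, -0.01, 0.08 and 0.10 in the 4 wild-type arrays at 30 min and -0.14, -0.07, -0.28 and -0.31 in those at 1 h, so the 1 h arrays lay low and replicates 3 and 4 lowest. The group mean of -0.20 at 1 h was the lowest of the 19, and 0.26 in DAPT at 1.5 h the highest, followed by its own DMSO control at 0.16. The members' median difference of DAPT at 1.5 h from that control was 0.13. It was -0.008 when arrays were centred on their medians instead of quantile normalised.

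**Figure D1:**
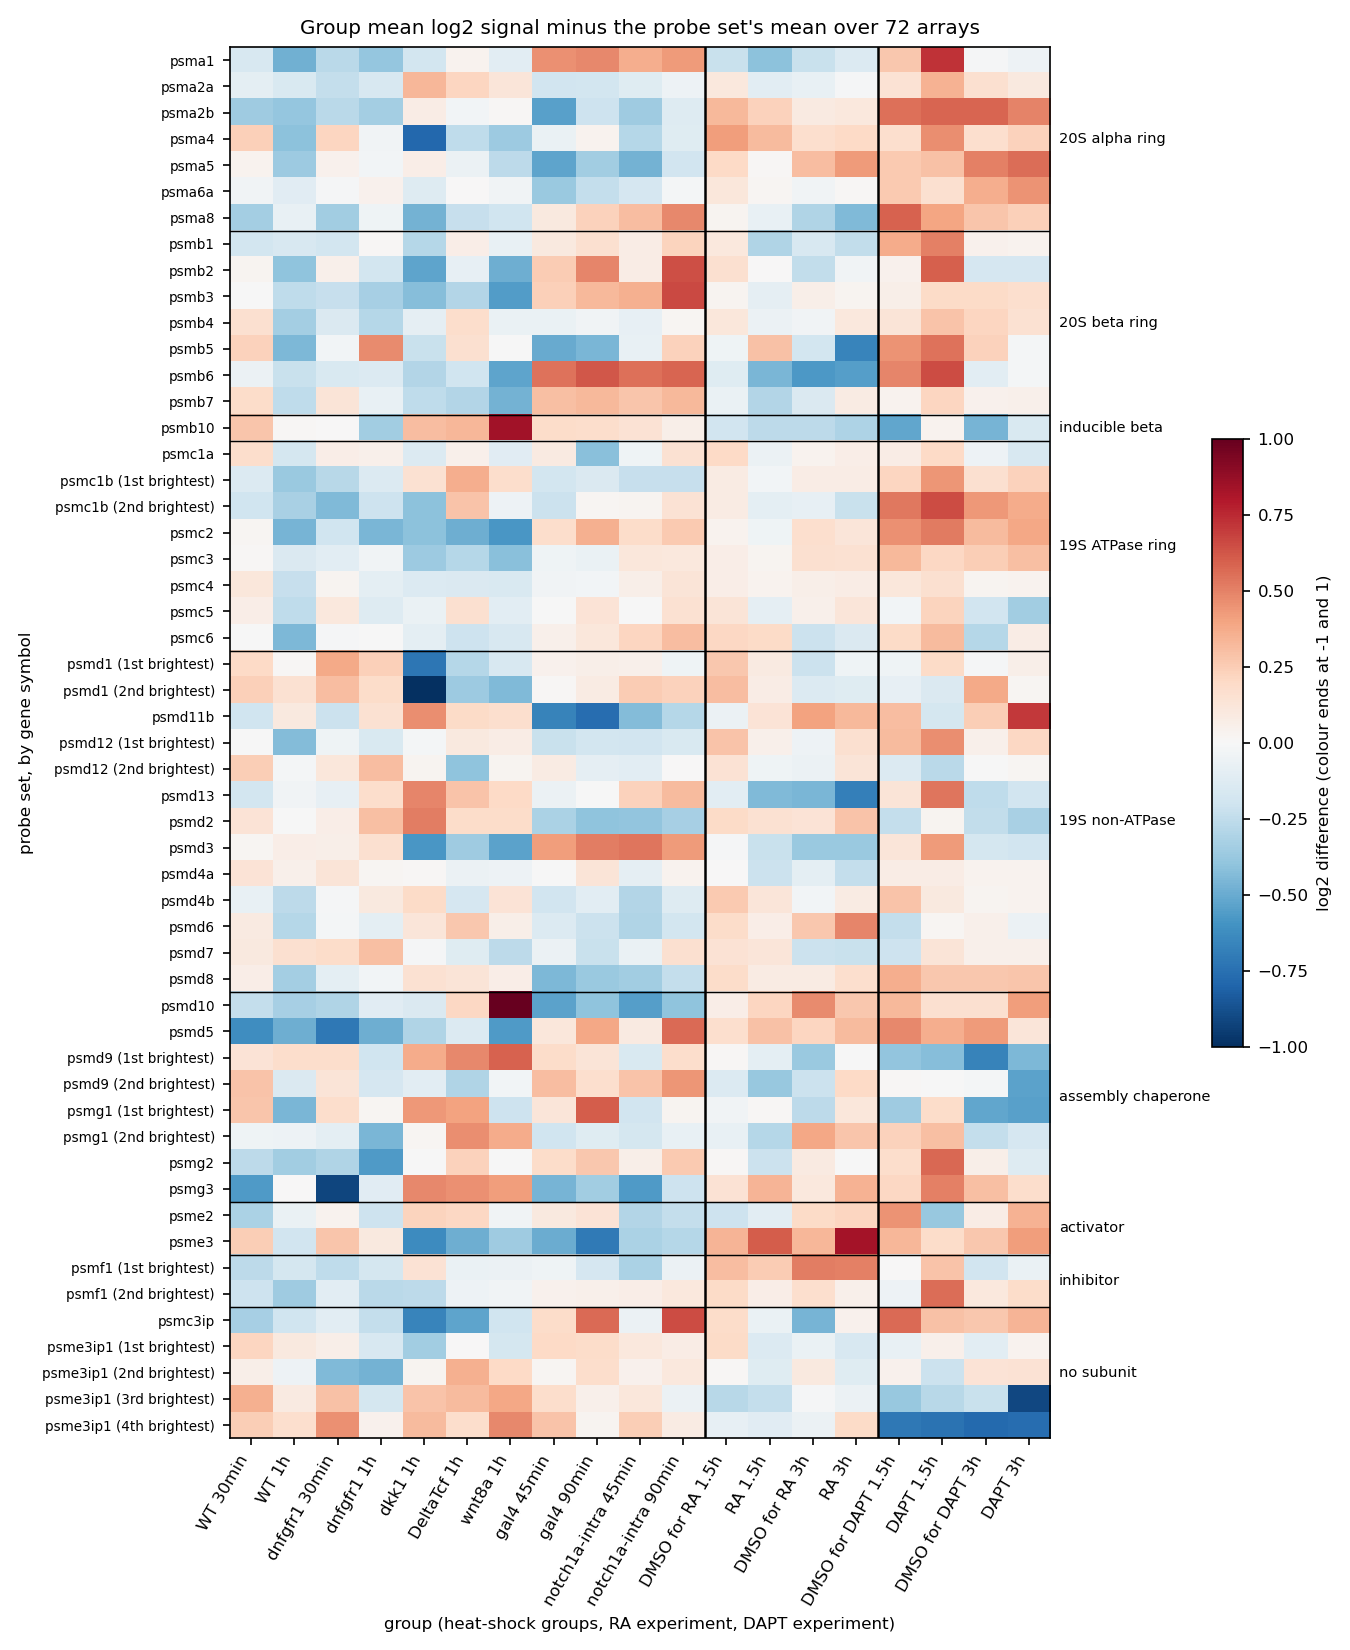
Heat map of the 53 tested proteasome probe sets (rows, grouped by role) over the 19 groups (columns), each cell being the group mean minus the mean over 72 arrays in log2 units, with colours ending at -1 and 1. Black lines part the roles and the heat-shock, RA and DAPT experiments. The wild-type 1 h column is low for many rows, psmd10 is highest in wnt8a, and psme3 is highest in RA at 3 h.

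Between 30 min and 1 h after the same shock, the signal of 14 proteasome probe sets fell in wild-type tissue, across the core and the regulatory particle. At an adjusted p under 0.05 (limma, Benjamini-Hochberg over 10126 probe sets) 14 of 53 members fell and 1 rose, where 4.37% of all tested probe sets changed, 1.81% upwards and 2.56% downwards. The members' median difference was -0.16 against -0.01 for all tested probe sets, whose quartiles were -0.20 and 0.19. Of the members 12 lay above 0, against 48.9% of all probe sets, and 41 below, and the 1 h arrays of 15 lay wholly below the 30 min arrays, as did 7.95% of all probe sets. By role the falls took in 2 of 7 alpha, 4 of 7 standard beta, 3 of 8 ATPase and 3 of 13 non-ATPase probe sets, the activator psme3 and the chaperone psmg1.

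The alpha subunit psma4 read 10.44, 10.58, 10.58 and 10.75 at 30 min and 9.96, 10.19, 9.63 and 9.98 at 1 h. Every 1 h array was below every 30 min array. Its level fell by 0.65 ± 0.10 (SE) on the log2 scale (limma adjusted p = 1.883e-05).

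The ATPase psmc2 read 9.99, 10.19, 10.08 and 10.30 at 30 min and 9.63, 9.72, 9.69 and 9.55 at 1 h, again without overlap, and fell by 0.49 ± 0.10 (adjusted p = 0.0009412). Among the cutting subunits, psmb7 read 11.15, 11.29, 11.28 and 11.38 at 30 min against 10.89, 10.87, 10.82 and 10.78 at 1 h. Its groups stood apart and it fell by 0.43 ± 0.09 (adjusted p = 0.00201). The cutting subunit psmb5 read 8.99, 9.21, 9.30 and 9.38 against 8.48, 8.89, 8.58 and 8.23, and its fall of 0.68 ± 0.18 had an adjusted p of 0.01875. The third cutting subunit, psmb6, differed by -0.16 ± 0.11 (adjusted p = 0.4746), with overlapping arrays.

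Further falls were those of psmb4, a structural beta subunit (-0.50, adjusted p = 0.003432), psme3, which caps the core as an activator (-0.44, adjusted p = 0.005281), and psmc4 (-0.34, adjusted p = 0.009983). The remaining members that fell were psma5, psmb2, psmc6, psmd6, psmd8, psmd12 and psmg1. They changed by -0.38 to -0.74, the latter being psmg1, a chaperone of the alpha ring (adjusted p = 0.03401). For psmg1 the groups overlapped: 30 min replicate 1, at 7.86, lay within the 1 h values of 7.78 to 7.88, and the other 30 min arrays at 8.67, 8.71 and 8.95 above them. These are values of the brighter psmg1 probe set, and the dimmer one differed by -0.01 (adjusted p = 0.9824). The dimmer set of psmd12 differed by -0.26 (adjusted p = 0.5234).

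One chaperone gene went up. Readings of psmg3, which pairs with another chaperone to start the alpha ring, were 7.42, 7.15, 6.97 and 7.13 at 30 min and 7.88, 7.76, 7.57 and 7.74 at 1 h. All 1 h arrays were higher, and the rise was 0.57 ± 0.15 (limma adjusted p = 0.01214). Its call was lost under median centring and without 30 min replicate 3.

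The count of 15 rested on few libraries. It was 6 without wild type 1 h replicate 4, 8 without 1 h replicate 3, 7 without 30 min replicate 3 and 9 without 30 min replicate 4. The share of all probe sets called fell too in these fits, to 2.262%, 2.49%, 2.252% and 2.551% in that order, from 4.37%. A fit of these 8 arrays alone gave 9 (1 higher and 8 lower; 4.45% of all probe sets called), and 0 with the replicate number as a block (1.38%), although the numbers do not pair these arrays. Of the falls named, psma4, psmc2, psmb7 and psmb4 kept their call without any single array, whereas psmb5 lost it without 1 h replicate 1 or 4 or 30 min replicate 3 or 4, psmg1 without any array but 30 min replicate 1, psme3 without 1 h replicate 3 and psmc4 without 1 h replicate 4. Those of psma5, psmb2, psmc6, psmd6, psmd8 and psmd12 were lost without 1 h replicate 4, and each also without at least 1 other array. Marker sums of neighbouring tissues had higher means at 1 h, but their arrays overlapped between the times. The summed signal of the 6 neural markers ran from 590 to 2588 at 1 h and 267 to 883 at 30 min. That of 7 epidermal markers ran from 1759 to 4358 and 584 to 2908, and that of 3 notochord markers from 47 to 639 and 52 to 93. The PSM sum ran from 19747 to 22522 and from 18916 to 23209. None of the markers of these 4 lists was called, and the part of other tissues in the falls was not tested.

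**Figure D2:**
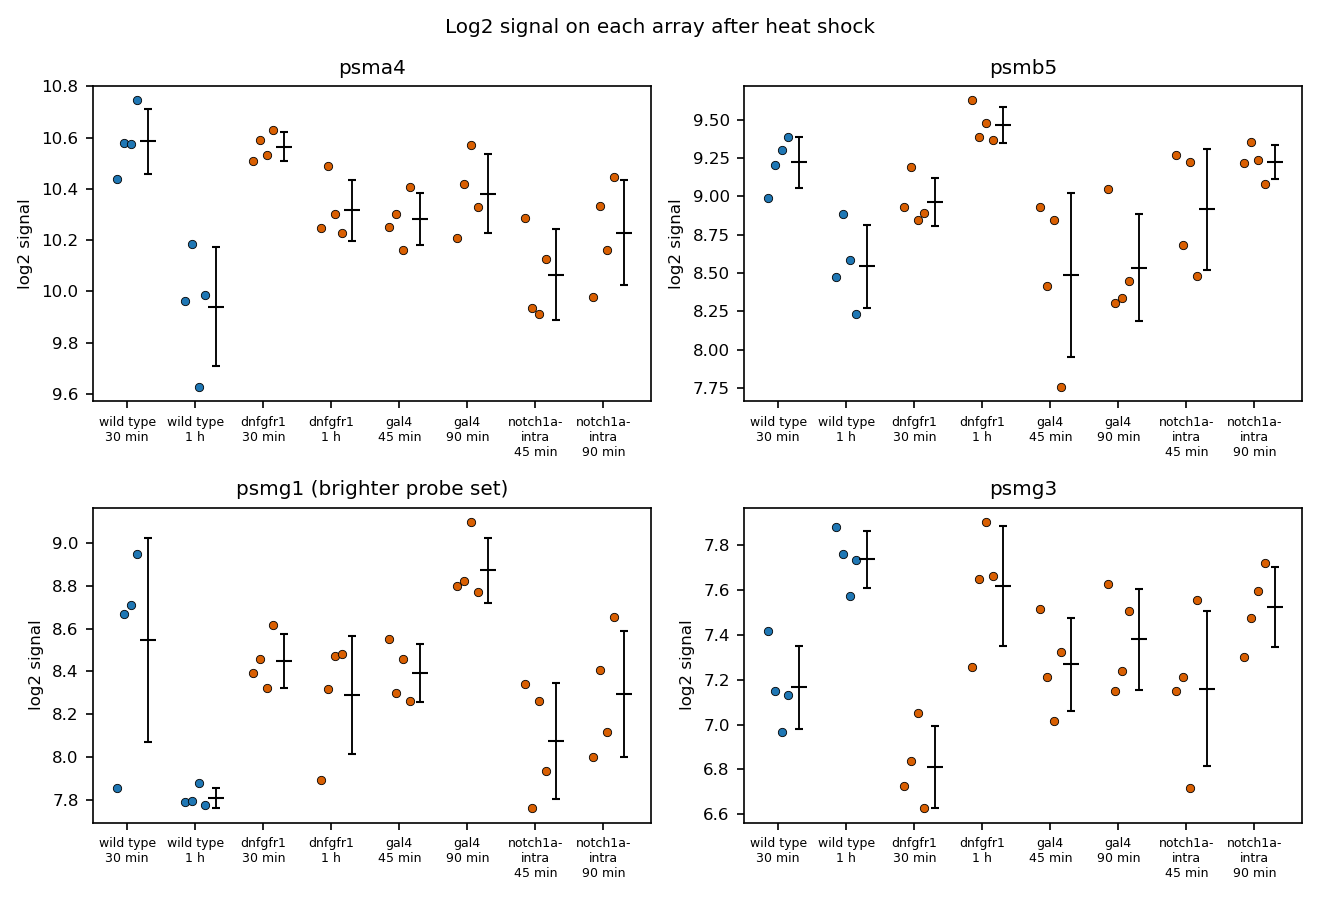
Log2 signal of psma4, psmb5, psmg1 (its brighter probe set) and psmg3 on every array of the groups with 2 times after heat shock, with the mean and SD beside the points; blue marks wild type and orange the other lines. In wild type the 1 h points lie below the 30 min points for psma4 and psmb5 and above them for psmg3, while the psmb5 points of dnfgfr1 go up.

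The same interval was sampled in dnfgfr1 embryos, and longer intervals after a longer shock in gal4 and notch1a-intra embryos. In dnfgfr1, 2 of 53 members rose and none fell between 30 min and 1 h (5.11% of all probe sets called, 12 members at an unadjusted p under 0.05), with a median of -0.08. In gal4, 1 member fell between 45 and 90 min (5.12% called; median 0.05), and in notch1a-intra 2 rose (6.35% called; median 0.11, with 45 of 53 above 0 against 51.3% of all probe sets). The 14 genes that fell in wild type lay between -0.25 and 0.50 in dnfgfr1, with a median of -0.14 and 11 below 0, and none was called. Their range was -0.21 to 0.48 in gal4, with 2 below 0, and 0.03 to 0.56 in notch1a-intra, with none below 0 and 1, psmb2, called as a rise. Shock length and time differ between the lines, so only dnfgfr1 can be set against wild type.

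That difference was tested for each member. It was called for 1 of 53, psmb5 (0.375% of all probe sets called). In dnfgfr1 psmb5 read 8.93, 9.19, 8.85 and 8.89 at 30 min and 9.63, 9.38, 9.48 and 9.37 at 1 h, without overlap, a change of 0.50 ± 0.18 (adjusted p = 0.09506). The change exceeded that of wild type by 1.18 ± 0.26 (limma adjusted p = 0.01178), and this call was lost without wild type 1 h replicate 4. For psma4, which changed by -0.25 in dnfgfr1 (adjusted p = 0.1472), the difference from wild type was 0.40 (adjusted p = 0.3336).

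In dnfgfr1 the chaperone psmg3 read 6.73, 6.84, 7.05 and 6.63 at 30 min and 7.26, 7.65, 7.90 and 7.66 at 1 h. The groups did not overlap and the rise was 0.81 ± 0.15 (adjusted p = 0.0001659). The other rise, of the alpha subunit psma8, was 0.30 ± 0.09 (adjusted p = 0.04521) with overlapping arrays, and leaving out any of 6 of the 8 arrays (dnfgfr1 30 min or 1 h replicates 1, 3 and 4) ended its call and left 1. In these libraries 4 of 6 neural markers rose, with a summed signal of 1025 to 4551 at 1 h against 243 to 297 at 30 min, and their part in these changes was not tested.

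In gal4 the ATPase psmc1a read 10.26, 9.98, 10.18 and 9.65 at 45 min and 9.15, 10.20, 8.67 and 10.004 at 90 min. Replicates 1 and 3 at 90 min were low and the other two lay among the 45 min arrays. The difference was -0.51 ± 0.16 (adjusted p = 0.03993), and the call was lost without 45 min replicate 1, 2 or 3 or without 90 min replicate 1 or 3. The stress gene hsp70.3 split the same 90 min arrays, at 10.75 and 10.60 in replicates 1 and 3 and 7.78 and 7.41 in replicates 2 and 4. Blood markers (2 of 6 lower) and neural markers (1 of 6 higher) also moved in this line, which was not tested as a part of the change.

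In notch1a-intra the beta subunit psmb2 read 9.89, 9.30, 9.66 and 9.36 at 45 min and 10.05, 10.14, 10.13 and 10.14 at 90 min. All 90 min arrays were higher, by 0.56 ± 0.11 on average (adjusted p = 0.0005969). The lowest 45 min arrays, at 9.30 and 9.36, were replicates 2 and 4, the ones with low notch1a. The other rise was psmc3ip, no subunit, at 0.72 ± 0.22 (adjusted p = 0.03425). Its call was lost without 45 min replicate 2 or 4 or without 90 min replicate 2, 3 or 4. Without 45 min replicates 2 and 4, whose notch1a was low, 1 member was called as a rise and 1.84% of all probe sets were called. A fit of these groups alone called 0 members (2.38% of all probe sets).

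**Figure D3:**
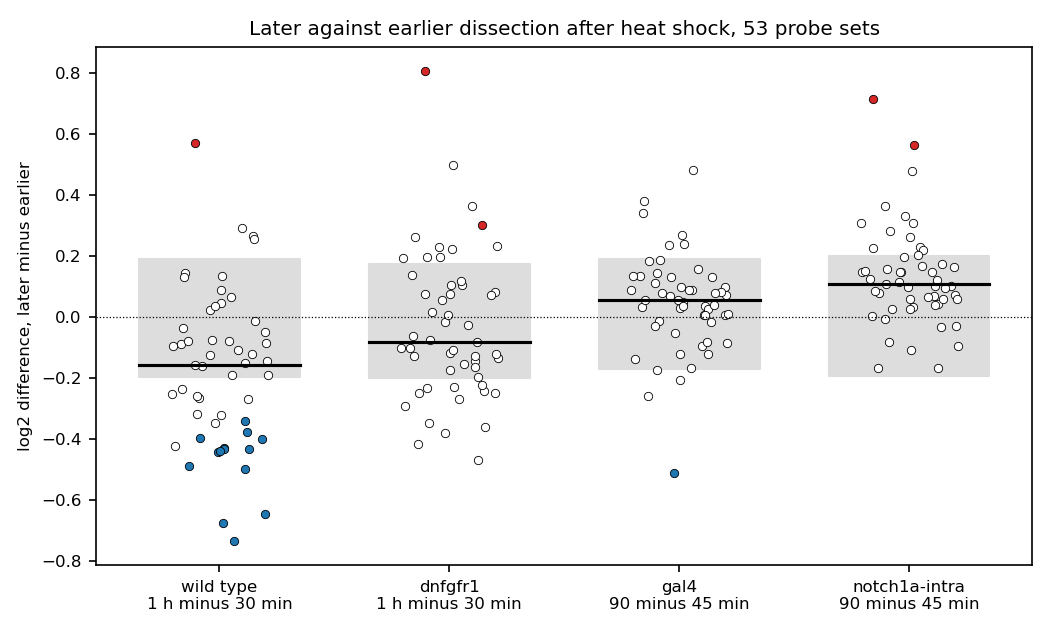
Log2 difference, later minus earlier time after heat shock, of the 53 proteasome probe sets in wild type, dnfgfr1, gal4 and notch1a-intra; red points rose, blue points fell and open points were not called. The black line is the members' median, -0.16, -0.08, 0.05 and 0.11 in that order, and the grey box spans the quartiles of all 10126 tested probe sets. In wild type the median line sits low in the box, and the 14 blue points lie below the box.

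The Wnt groups were each compared with wild type at 1 h, so the comparisons share those 4 control arrays and are given side by side. Members higher than in wild type outnumbered lower ones in each: in dkk1 16 rose and 7 fell (12.5% and 12.1% of all tested probe sets), in the libraries labelled DeltaTcf 19 rose and 3 fell (9.92% and 10.6%), and in wnt8a 13 rose and 3 fell (7.84% and 8.39%). Counted either way, 24.6%, 20.6% and 16.2% of all probe sets were called. The members' medians were 0.15, 0.23 and 0.12, where all probe sets had -0.01, 0.00 and 0.01. The control arrays were those in which the members lay low, so wild type at 30 min was used as a further control. Against it the medians were -0.09, 0.04 and 0.00, and 8 rose and 12 fell in dkk1, 10 and 11 in the libraries labelled DeltaTcf, and 7 and 15 in wnt8a. Of all tested probe sets 14.8% rose and 16.2% fell against it in dkk1, 11.8% and 13.4% in the libraries labelled DeltaTcf, and 12.2% and 13.9% in wnt8a, so rises among the members no longer outnumbered falls.

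Against the 30 min control 13 of the 23 members called in dkk1 kept their call and direction (7 rises and 6 falls), 11 of 22 in the libraries labelled DeltaTcf (8 and 3) and 8 of 16 in wnt8a (5 and 3). The rest lost their call, and 3, 3 and 1 of them turned in sign. Calls of members found only against 30 min are not described. In wnt8a the count was 10 without wild type 1 h replicate 3 (12.8% of all probe sets called). In both controls the shock was the same and only the time after it differed. Of all probe sets 3.28% were called in dkk1 against wnt8a. The shares were 2.53% and 3.48% in the libraries labelled DeltaTcf against wnt8a and dkk1. A Wnt effect on differences shared by the 3 groups cannot be told apart from a difference between wild-type arrays and those of the transgenic lines, and neither was tested.

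In the alpha ring 4 of 7 probe sets rose and 2 fell in dkk1, 4 rose in the libraries labelled DeltaTcf and 3 rose in wnt8a. The falls in dkk1 were those of psma8 (-0.39, adjusted p = 0.001105) and of psma4, given below. That of psma8 was not called against 30 min (-0.13, adjusted p = 0.3262). The alpha subunit psma2a differed by 0.48, 0.36 and 0.27 (adjusted p = 8.536e-05, 0.003431 and 0.04159) and its paralog psma2b by 0.47, 0.36 and 0.40 (adjusted p = 0.001621, 0.01872 and 0.01107). Those of psma2b remained called against the 30 min control, at 0.43, 0.33 and 0.36, and so did those of psma2a in dkk1 (0.43) and the libraries labelled DeltaTcf (0.32). By contrast psma1, at 0.29, 0.52 and 0.38 against 1 h, had -0.03, 0.20 and 0.06 against 30 min, none of them called. Single arrays mattered too: the psma2a call in wnt8a was lost without any array but wild type 1 h replicate 2, that of psma2b in the libraries labelled DeltaTcf without their replicate 2, that of psma1 in dkk1 without wild type 1 h replicate 1, 3 or 4 or dkk1 replicate 2 or 3, and in wnt8a without wild type 1 h replicate 3.

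The alpha subunit psma4 was lower in dkk1 than in the other Wnt groups. It read 9.59, 9.62, 9.68 and 9.37 in dkk1, 10.06, 10.15, 10.15 and 10.02 in the libraries labelled DeltaTcf, and 10.10, 9.91, 9.90 and 10.04 in wnt8a. Wild type at 1 h, at 9.63 to 10.19, overlapped with dkk1 by 1 array. Against wild type at 1 h the differences were -0.38 ± 0.10 (adjusted p = 0.003609), 0.15 (adjusted p = 0.2976) and 0.05 (adjusted p = 0.8223). Set directly against each other, dkk1 differed from wnt8a by -0.42 ± 0.10 (adjusted p = 0.008203, lost without dkk1 replicate 4) and the libraries labelled DeltaTcf were above dkk1 by 0.53 ± 0.10 (adjusted p = 0.0005279).

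In the standard beta ring no member was called in dkk1 or wnt8a, and 3 of 7 rose in the libraries labelled DeltaTcf. There psmb5 read 9.04, 9.21, 9.25 and 9.11, above the wild-type 1 h values of 8.23 to 8.89, a difference of 0.60 ± 0.18 (adjusted p = 0.01206). Against 30 min it was -0.07, and without wild type 1 h replicate 4 the call was lost. The others were psmb4 (0.52, adjusted p = 0.0004287, but 0.02 against 30 min) and psmb2 (0.32, adjusted p = 0.03352, but -0.11 against 30 min), the latter lost without wild type 1 h replicate 3 or 4 or labelled DeltaTcf replicate 1, 3 or 4. The cutting subunits psmb6 and psmb7 were not called against wild type at 1 h in any of the 3 groups, with differences of -0.30 to 0.03 and -0.22 to -0.005. For psmb7 this control had itself fallen since 30 min. Its wnt8a mean of 10.62 was the lowest of the 19 groups and below every 30 min wild-type array given above. The cutting subunit psmb5 had 0.22 in dkk1 (adjusted p = 0.4037) and 0.44 in wnt8a (adjusted p = 0.08884).

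The inducible subunit psmb10 read 6.91, 6.74, 6.80 and 7.18 in wnt8a and 6.07, 6.63, 5.67 and 5.95 in wild type at 1 h, without overlap. The difference was 0.83 ± 0.24 (adjusted p = 0.01127). It was not called against wild type at 30 min (0.56, adjusted p = 0.07556) or without wild type 1 h replicate 3. In dkk1 and the libraries labelled DeltaTcf, psmb10 differed by 0.30 (adjusted p = 0.3887) and 0.32 (adjusted p = 0.3719).

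In the ATPase ring psmc1b was higher in all 3 groups. Its brighter probe set read 8.94, 8.93, 8.66 and 8.82 in wild type at 1 h and 9.44, 9.46, 9.32 and 9.26 in dkk1. The libraries labelled DeltaTcf had 9.48, 9.74, 9.64 and 9.44 and wnt8a 9.41, 9.14, 9.53 and 9.48. Each of these groups lay above wild type, by 0.53 ± 0.11 (adjusted p = 0.0001528), 0.73 ± 0.11 (adjusted p = 6.919e-07) and 0.55 ± 0.11 (adjusted p = 0.0001605). Against 30 min the differences were 0.29, 0.50 and 0.31, all called. The second probe set of psmc1b differed by -0.09 (adjusted p = 0.7008), 0.61 (adjusted p = 0.0007205) and 0.27 (adjusted p = 0.1827), so the sets disagree in dkk1.

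The non-ATPase subunits moved both ways: 7 of 13 probe sets rose and 3 fell in dkk1, 4 and 2 in the libraries labelled DeltaTcf, and 4 and 3 in wnt8a. The largest fall among the members in dkk1 was in psmd1, a large scaffold subunit of the regulatory particle. Its dimmer probe set read 9.09, 9.57, 9.40 and 9.12 in wild type at 1 h and 8.32, 8.30, 7.93 and 7.97 in dkk1. The libraries labelled DeltaTcf had 8.61, 8.87, 8.999 and 8.64 and wnt8a 8.73, 8.76, 8.49 and 8.81. All 3 groups lay below wild type, and dkk1 lowest. The differences were -1.16 ± 0.14 (adjusted p = 1.774e-09), -0.51 (adjusted p = 0.004263) and -0.59 (adjusted p = 0.001175), and -1.25, -0.60 and -0.68 against 30 min.

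The brighter psmd1 probe set read 9.49, 9.41, 9.20 and 9.29 in wild type at 1 h and 8.57, 8.97, 8.49 and 8.43 in dkk1, again with no overlap. It fell by 0.73 ± 0.13 in dkk1 (adjusted p = 1.333e-05), but in the libraries labelled DeltaTcf (-0.29, adjusted p = 0.103) and wnt8a (-0.16, adjusted p = 0.4409) it was not called. Both psmd1 sets were lower in dkk1 than in wnt8a, each by a log2 difference of -0.57 (adjusted p = 0.008557 for the dimmer and 0.005255 for the brighter). The libraries labelled DeltaTcf were above dkk1 in both, by 0.65 ± 0.14 (adjusted p = 0.00211) and 0.44 ± 0.13 (adjusted p = 0.03908), the second call being lost without any array but labelled DeltaTcf replicate 1 or dkk1 replicate 2.

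The lid subunit psmd3 read 8.73, 8.84, 8.83 and 8.50 in wild type at 1 h and 8.10, 8.20, 7.99 and 8.04 in dkk1. The libraries labelled DeltaTcf had 8.22, 8.28, 8.37 and 8.38 and wnt8a 8.12, 8.14, 8.23 and 8.04. No array of these groups reached wild type. The differences were -0.65 ± 0.14 (adjusted p = 0.0003882), -0.42 (adjusted p = 0.02834) and -0.60 (adjusted p = 0.001692), and -0.60, -0.37 and -0.55 against 30 min. In the libraries labelled DeltaTcf the call was lost without wild type 1 h replicate 1, 2 or 3 or without their own replicate 1 or 2.

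Other non-ATPase subunits were higher. The lid subunit psmd6 differed by 0.41, 0.56 and 0.35, psmd8 by 0.49, 0.47 and 0.40, and psmd12 (brighter set) by 0.41, 0.53 and 0.51, all called against wild type at 1 h. Of these calls psmd12 in dkk1 was lost without wild type 1 h replicate 3 and psmd8 in wnt8a without wild type 1 h replicate 4. Against 30 min these 3 genes had differences between -0.03 and 0.18, none called, and they are among those that fell in wild type between the times. The dimmer psmd12 set was not called against wild type at 1 h, at 0.04, -0.385 and 0.05. The lid subunit psmd13 kept its rise against both controls in dkk1 (0.52 and 0.67) and in the libraries labelled DeltaTcf (0.33 and 0.47, the first lost without any wild type 1 h array or labelled DeltaTcf replicate 1 or 3). The lid subunit psmd7 fell in wnt8a (-0.42, adjusted p = 0.01153, and -0.35 against 30 min). The non-ATPase subunit psmd2 rose in dkk1 (0.51, adjusted p = 0.001041) and kept its call against 30 min (0.37). In the libraries labelled DeltaTcf and in wnt8a psmd2 was not called against wild type at 1 h (0.19 in each).

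Among the assembly chaperones 3 of 8 probe sets rose in dkk1, 4 in the libraries labelled DeltaTcf and 4 in wnt8a. The largest rise was that of psmd10, known as gankyrin, an ankyrin-repeat chaperone of the ATPase ring. It read 8.35, 7.79, 8.56 and 7.98 in wnt8a and 6.099, 7.27, 7.29 and 6.54 in wild type at 1 h. All wnt8a arrays were higher, by 1.37 ± 0.26 (adjusted p = 7.803e-05), and by 1.28 against 30 min. In dkk1 it read 7.21, 6.83, 7.16 and 6.74, and in the libraries labelled DeltaTcf 8.52, 6.78, 7.16 and 6.91, where replicate 1 stood alone. Neither was called (0.19, adjusted p = 0.6451, and 0.55, adjusted p = 0.1289). The direct difference of dkk1 from wnt8a was -1.18 ± 0.26 (adjusted p = 0.003527).

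The chaperone psmg1 (brighter probe set) read 8.84, 8.56, 8.60 and 8.81 in dkk1 against 7.79, 7.79, 7.88 and 7.78 in wild type at 1 h, a difference of 0.89 ± 0.22 (adjusted p = 0.001265). In the libraries labelled DeltaTcf it read 8.76, 8.49, 9.15 and 8.28 (0.86 ± 0.22, adjusted p = 0.002453), and in wnt8a the difference was 0.25 (adjusted p = 0.4935). Against 30 min the first 2 were 0.16 and 0.12 and not called. The dimmer psmg1 set had 0.07 in dkk1 (adjusted p = 0.8199), where the sets disagree, 0.52 in the libraries labelled DeltaTcf (adjusted p = 0.04254, lost without wild type 1 h replicate 3 or 4 or labelled DeltaTcf replicate 1, 2 or 3) and 0.42 in wnt8a (adjusted p = 0.127). For psmg3 the differences of 0.47, 0.45 and 0.41 (adjusted p = 0.01137, 0.01948 and 0.04023) grew to 1.04, 1.02 and 0.98 against 30 min, a gene that rose in wild type between the times. Against wild type at 1 h its call was lost in dkk1 without dkk1 replicate 4, in the libraries labelled DeltaTcf without their replicate 1 or wild type 1 h replicate 3, and in wnt8a without any array but wild type 1 h replicate 1 or wnt8a replicate 4. The partner chaperone of psmg1, psmg2, differed by 0.34, 0.57 and 0.34, and by 0.26, 0.50 and 0.26 against 30 min, where only the middle one was called. Against wild type at 1 h its call in dkk1 was lost without any array but wild type 1 h replicate 2 or dkk1 replicate 4 and in wnt8a without any but wild type 1 h replicate 2, and both were lost under the deposited scaling and median centring.

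The activator psme3 read 8.78, 8.93, 8.87 and 8.79 in dkk1 and 9.56, 9.27, 9.002 and 9.26 in wild type at 1 h, without overlap. It differed by -0.43 ± 0.10 in dkk1 (adjusted p = 0.0009677), -0.29 in the libraries labelled DeltaTcf (adjusted p = 0.03248, lost without wild type 1 h replicate 1, 2 or 4 or labelled DeltaTcf replicate 3 or 4) and -0.16 in wnt8a (adjusted p = 0.3281). Against 30 min the first 2 were -0.87 and -0.73. Neither psmf1 probe set was called.

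Between the Wnt groups themselves 4 of 53 members (7.55%) were called in dkk1 against wnt8a, all lower, where 3.28% of all probe sets were called. In the libraries labelled DeltaTcf 1 member (1.89%) was called against wnt8a, where 2.53% of all were. Against dkk1 these libraries had 6 members called (11.3%), all higher, where 3.48% of all were. The 4 were psma4, both psmd1 sets and psmd10, given above. The single one was psmb2, by 0.41 ± 0.11 (adjusted p = 0.03519, lost without any array but labelled DeltaTcf replicate 2 or wnt8a replicate 4). The 6 were psma4, psmb1, psmb2, the second psmc1b set and both psmd1 sets. They differed by 0.36 to 0.70, and 3 members were called without labelled DeltaTcf replicate 3 or without dkk1 replicate 4 (1.88% and 2.18% of all probe sets called). With the deposited scaling this comparison gave 6 higher and 1 lower, and with median centring 3 higher and 0 lower (2.27% of all probe sets called in the latter).

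Between wild type and the Wnt groups the marker sums, of deposited intensities without normalisation, ran as follows. The PSM sum was 25184 to 28219 in dkk1, 22813 to 25678 in the libraries labelled DeltaTcf and 23387 to 27321 in wnt8a, against 19747 to 22522 in wild type at 1 h. The neural sum was 711 to 1252, 428 to 960 and 769 to 2491 against 590 to 2588. The notochord sum was 42 to 103, 43 to 73 and 224 to 623 against 47 to 639. On the normalised log2 scale the single PSM markers did not follow their sum. Of these 13 markers 2 were higher and 2 lower in dkk1, 0 and 3 in the libraries labelled DeltaTcf and 1 and 1 in wnt8a. Their median log2 differences were -0.20, -0.30 and -0.09. In dkk1 1 of 2 tested notochord markers was higher and 1 lower and 1 of 4 muscle markers was higher, and in the libraries labelled DeltaTcf 1 of 6 neural markers was lower. The part of these tissues in the member differences was not tested.

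**Figure D4:**
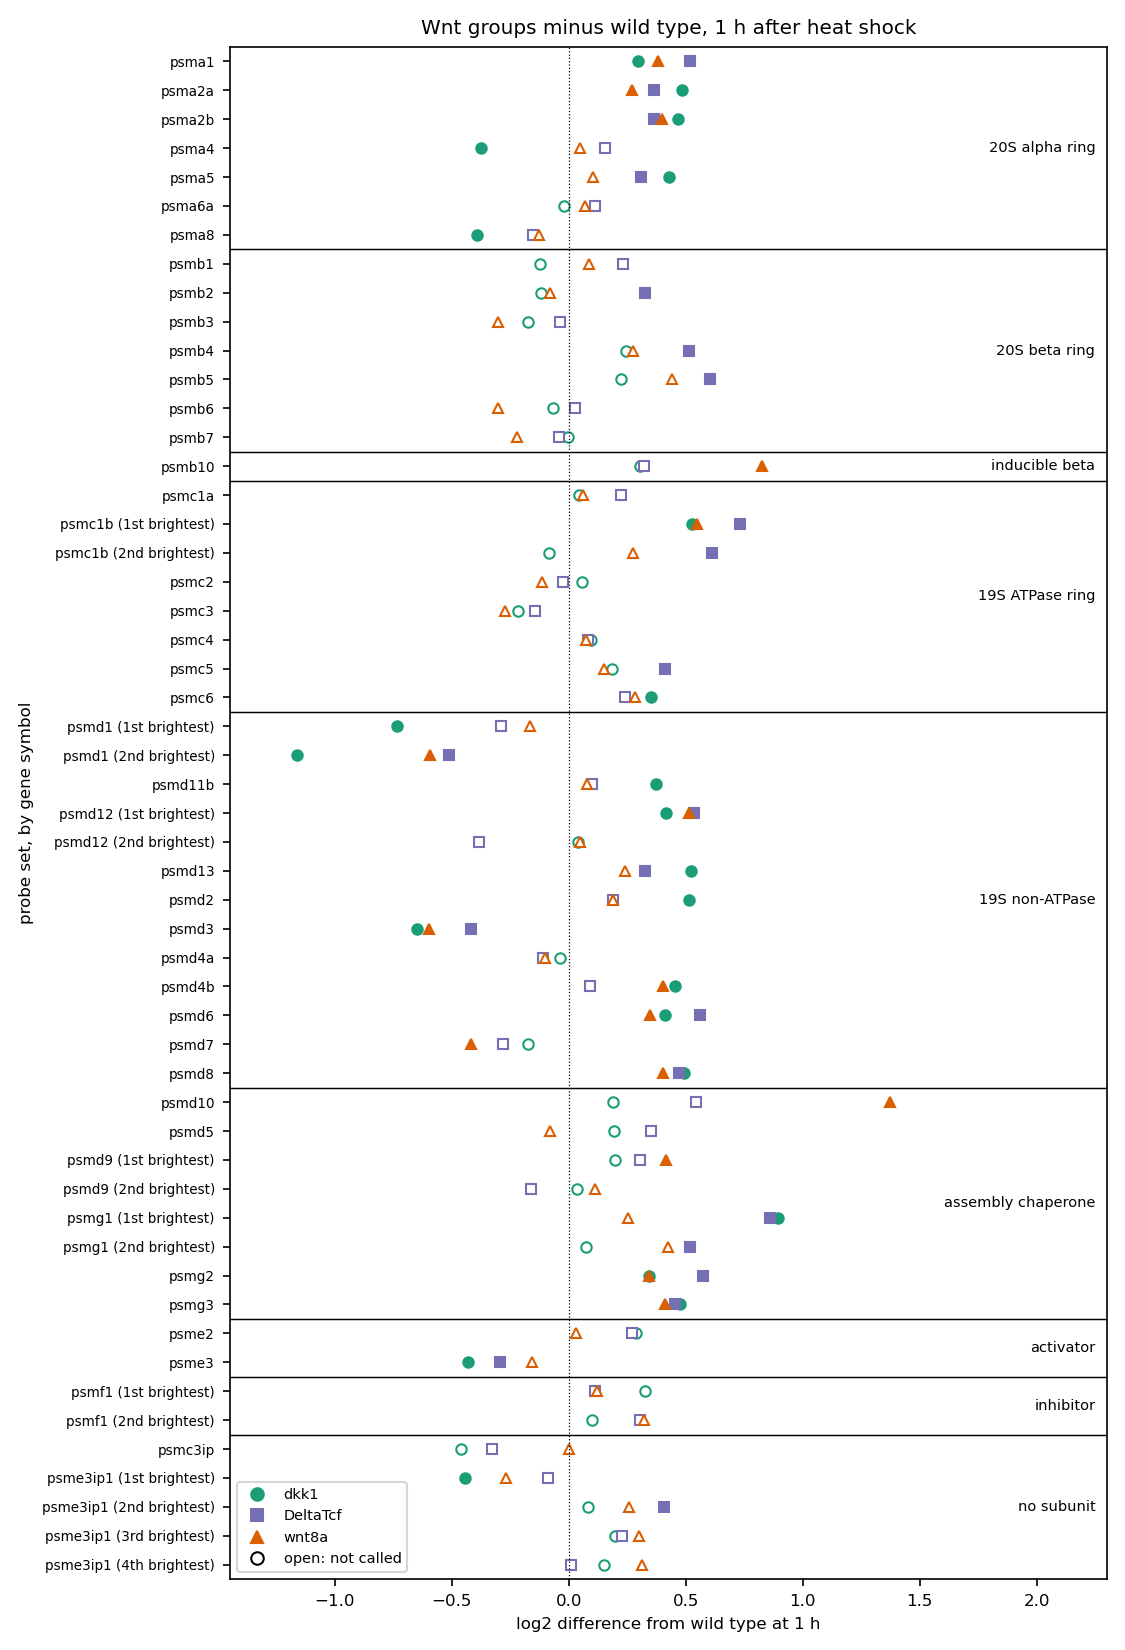
Log2 difference from wild type at 1 h of the 53 proteasome probe sets in dkk1 (circles), the libraries labelled DeltaTcf (squares) and wnt8a (triangles), with filled symbols where the adjusted p was under 0.05. The dimmer psmd1 set reaches -1.16 in dkk1 and psmd10 reaches 1.37 in wnt8a, and most filled symbols lie to the higher side.

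**Figure D5:**
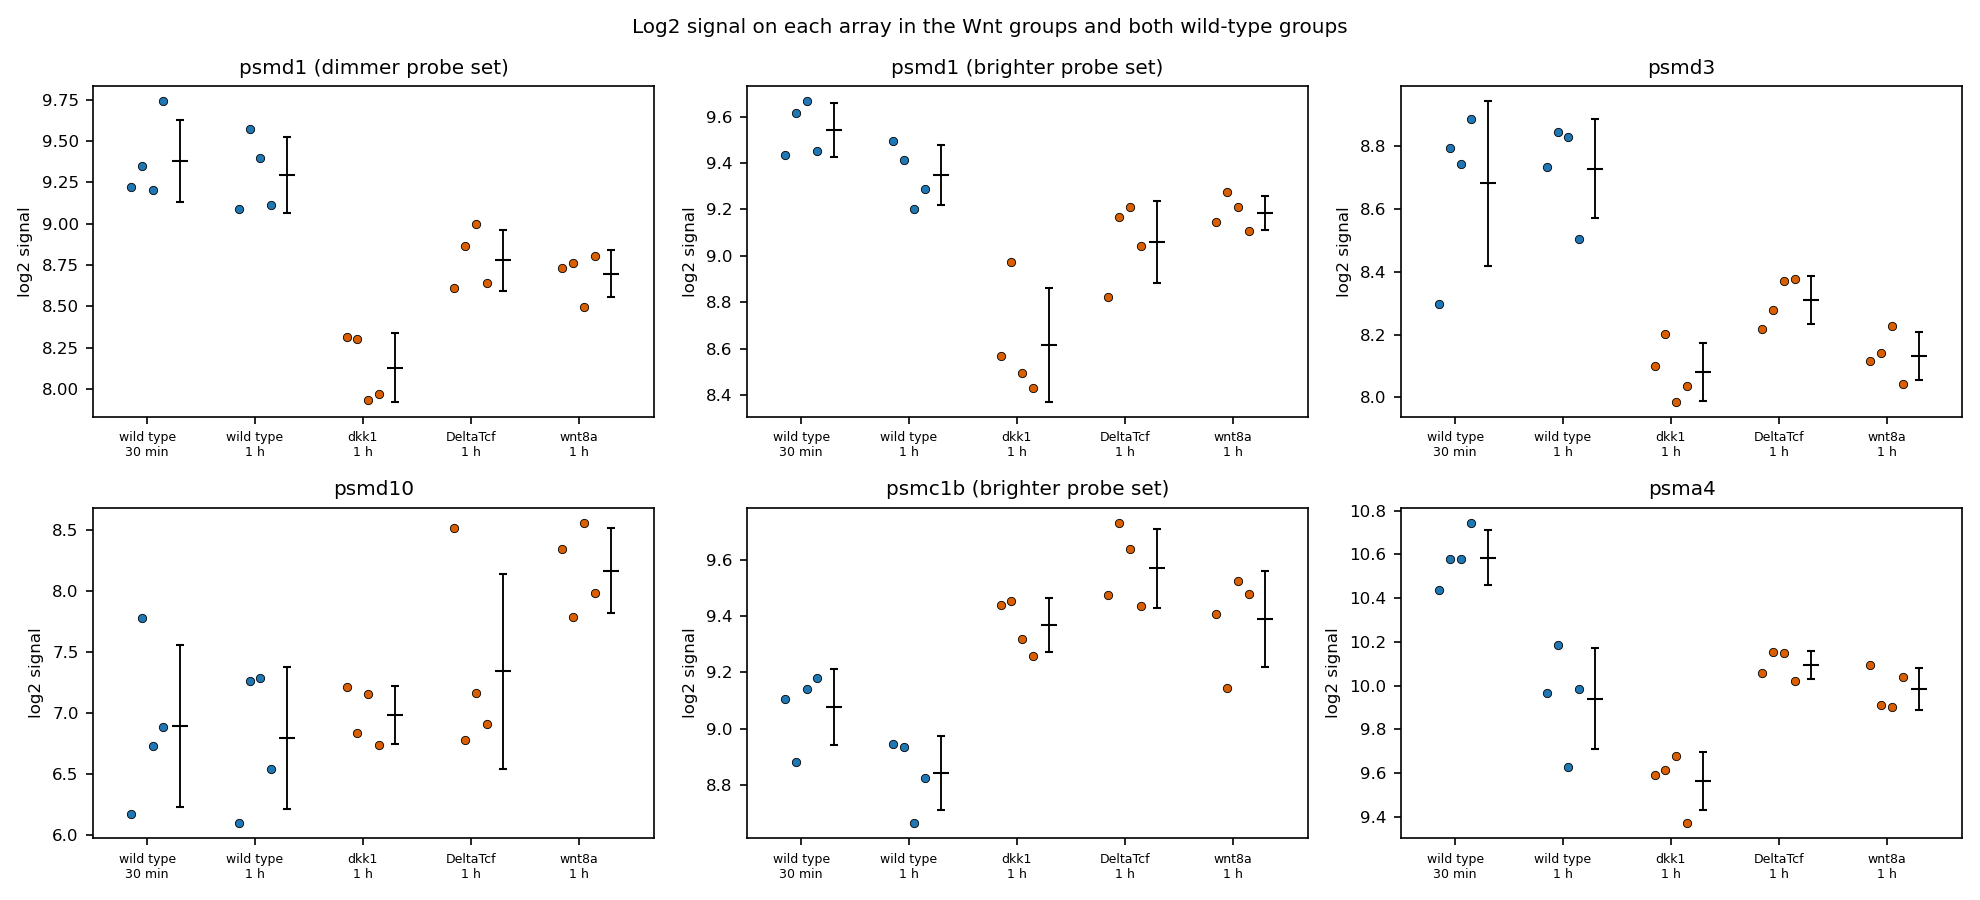
Log2 signal of both psmd1 probe sets, psmd3, psmd10, the brighter psmc1b set and psma4 on every array of wild type at 30 min and 1 h, dkk1, the libraries labelled DeltaTcf and wnt8a, with mean and SD beside the points. For psmd3 and the dimmer psmd1 set the Wnt groups lie below wild type at 1 h, and for psmd10 the 4 wnt8a arrays lie at 7.79 and above.

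Against wild type of the same time, 3 of 53 members were higher in dnfgfr1 at 1 h and none lower (3.42% of all probe sets called). The cutting subunit psmb5 led, at 9.63, 9.38, 9.48 and 9.37 in dnfgfr1 and 8.48, 8.89, 8.58 and 8.23 in wild type, by 0.92 ± 0.18 (adjusted p = 0.0007675), and kept its call under all 15 alternatives. The ATPase psmc6 was higher by 0.44 ± 0.13 (adjusted p = 0.0319), lost without dnfgfr1 replicate 1 or 4 or wild type 1 h replicate 2 or 4. The alpha subunit psma4 was higher by 0.38 ± 0.10 (adjusted p = 0.01823), lost without dnfgfr1 replicate 2 or wild type 1 h replicate 3. All 3 had fallen in wild type between 30 min and 1 h, so this control lay low for them. Wild type at 30 min was not set against dnfgfr1 at 1 h and is not among the alternatives counted here. At 30 min 1 member was lower, a psme3ip1 set (-0.50 ± 0.14, adjusted p = 0.03858; 3% of all probe sets called), and 0 were called without dnfgfr1 replicate 1, 3 or 4 or wild type 30 min replicate 2, 3 or 4.

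With notch1a-intra against gal4 no member was called at 45 min (limma, 4.09% of all probe sets called, 6 members at an unadjusted p under 0.05). The smallest p was that of the chaperone psmd9, at -0.33 (adjusted p = 0.1628). Without replicates 2 and 4 of notch1a-intra, 4 members were higher and 1 lower, where 11.7% of all probe sets were called. With array weights 1 was higher and 11 lower, where 26.2% were called. At 90 min 5 of 53 rose (6.87% called): psme3, psmb5, psmc1a, psmd11b and psmd7. The cutting subunit psmb5 read 9.22, 9.35, 9.23 and 9.08 against 9.05, 8.30, 8.34 and 8.45 in gal4, with gal4 replicate 1 closest, and rose by 0.69 ± 0.18 (adjusted p = 0.01185, lost without gal4 replicate 3).

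The activator psme3 read 9.26, 9.04, 9.35 and 9.06 against 9.13, 8.47, 8.70 and 8.74, overlapping through gal4 replicate 1, a rise of 0.42 ± 0.10 (adjusted p = 0.005979, lost without gal4 replicate 2). The other rises were those of psmc1a (0.58), psmd11b (0.48) and psmd7 (0.38), and each lost its call without 3, 4 and 7 of the arrays, respectively. For psmc1a the gal4 control at 90 min had the lowest mean of the 19 groups (9.505). Its low arrays were gal4 replicates 1 and 3, which also had high hsp70.3, as given above. The count was 2 without gal4 90 min replicate 2 or 3 and 3 without gal4 replicate 4 or notch1a-intra replicate 1, 3 or 4. In these fits 4.29% to 5.99% of all probe sets were called. The effect did not differ between the times for any member at an adjusted p under 0.05 (0.691% of all probe sets called, 3 members at an unadjusted p under 0.05, and psmc1a with the smallest p at 0.71, adjusted p = 0.1249). That count became 1 without gal4 45 min replicate 4 or gal4 90 min replicate 2 or 4, and 8, all higher, with array weights, where 13.2% of all probe sets were called.

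In the drug experiments few members were called. After 1.5 h of RA 1 member, the beta subunit psmb1, was lower (4.34% called). It read 10.31, 10.25, 10.19 and 10.09 in RA and 10.98, 10.38, 10.54 and 10.56 in DMSO, with DMSO replicate 1 far above the other arrays, a difference of -0.41 (adjusted p = 0.01223), lost without DMSO replicate 1 or RA replicate 4. The count was 2 without RA replicate 1. As a set the members lay low after 1.5 h of RA. Their median difference was -0.118 against -0.018 for all tested probe sets, whose quartiles were -0.181 and 0.152. Of the 53 members 44 lay below 0. After 3 h of RA psme3 was higher (1 member; 3.68% called). Its RA arrays read 10.35, 10.29 and 10.26 and its DMSO arrays 9.76, 9.81, 9.86 and 9.75, without overlap, and the rise of 0.50 ± 0.11 (adjusted p = 0.001475) held without any single array. Tissue markers moved too. Of 13 PSM markers 1 was higher and 5 lower after 1.5 h of RA (summed signal 12763 to 16268 against 16297 to 21811), where 2 of 4 muscle markers were lower and 1 of 6 epidermal and 1 of 6 neural markers higher. After 3 h 1 PSM marker was higher and 4 were lower (14106 to 14388 against 19776 to 20526), 1 of 2 germ-cell markers was higher (208 to 288 against 76 to 123), and 1 of 4 muscle markers and the 1 yolk marker were lower. Their part in the member changes was not tested. No member's RA effect differed between the times (limma, 0.721% called, 10 members at an unadjusted p under 0.05). The members' median for this difference between the times was 0.138, with 45 of 53 above 0, against 0.015 for all tested probe sets. The cutting subunit psmb7 had the smallest p, at 0.45 (adjusted p = 0.1029).

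After 1.5 h of DAPT 4 members were called, 2 higher and 2 lower (4.09%), or 0 and 2 under median centring. The beta subunit psmb2 read 10.13, 10.06 and 10.03 in DAPT and 9.48, 9.41, 9.52 and 9.67 in DMSO, without overlap, a rise of 0.55 ± 0.12 (adjusted p = 0.00512). The alpha subunit psma1 rose by 0.45, lost without DAPT replicate 3. Lower were psmd11b (-0.48, adjusted p = 0.03612) and psme2, an activator subunit that responds to interferon in mammals and lies near the bottom of the scale (-0.83, adjusted p = 0.04188), psmd11b being lost without DMSO replicate 2, 3 or 4 or DAPT replicate 1 or 3 and psme2 without DMSO replicate 1, 2 or 3 or DAPT replicate 1 or 2. The count was 2 without DMSO replicate 2 or 3 or DAPT replicate 3.

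After 3 h of DAPT, with 2 arrays, 1 member was lower (5.35% called). This was a dim psme3ip1 set with a mean of 5.02 in DAPT, while the differences of the other psme3ip1 sets lay above 0. The call of this set came with a difference of -0.69 (adjusted p = 0.03169). It was lost without either DAPT array or without DMSO replicate 2 or 3. The DAPT effect differed between the times for 1 member, psmd11b (3.96% of all probe sets called). At 1.5 h it read 8.71, 8.85 and 8.69 in DAPT and 8.93, 9.30, 9.25 and 9.46 in DMSO, and at 3 h 9.51 and 9.76 against 9.26, 8.79, 9.38 and 9.25. DAPT arrays were lowest at the early time and highest at the late one, and the effect changed by 0.95 ± 0.21 (adjusted p = 0.005469). The call was lost with array weights and when the other groups were left out of the model, with or without the replicate number as a block (adjusted p up to 0.1848). At 3 h of DAPT 5 of 13 PSM markers were lower and 0 higher than in DMSO, with a summed signal of 13190 to 14043 against 16155 to 18816, 2 of 2 germ-cell markers were higher (258 to 1585 against 118 to 188) and 1 of 6 blood markers was higher, and their part was not tested. That count was 2 without DMSO 1.5 h replicate 1 or DAPT 3 h replicate 1, and 3 without DAPT 1.5 h replicate 1 or DMSO 3 h replicate 1.

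The DMSO controls themselves differed between 1.5 h and 3 h. In the RA experiment 6 members were lower at 3 h and 1 was higher (4.37% of all probe sets called), or 0 and 1 under median centring. In the DAPT experiment 3 were lower and 1 higher (4.83%). The cutting subunit psmb6 was lower in both: 9.12, 8.95, 9.03 and 8.92 at 3 h against 9.32, 9.44, 9.63 and 9.44 in the RA experiment (-0.45, adjusted p = 0.009207), and 9.40, 9.23, 9.59 and 9.67 against 9.82, 10.11, 10.12 and 10.23 in the DAPT experiment (-0.60 ± 0.11, adjusted p = 0.0005328). The times did not overlap in either. The first call was lost without DMSO 1.5 h replicate 3, which left no member called.

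In the RA experiment the count was also 4 without DMSO 1.5 h replicate 1 or DMSO 3 h replicate 1 or 2, 3 without DMSO 1.5 h replicate 2, 2 without its replicate 4 and 1 without DMSO 3 h replicate 4. In these fits 2.43% to 3.39% of all probe sets were called. In the DAPT experiment the count was 1 without DMSO 1.5 h replicate 3 or DMSO 3 h replicate 2, and 2 without DMSO 1.5 h replicate 4 or DMSO 3 h replicate 3. Of all probe sets 3.265% to 4.452% were called there. The ATPase psmc6 (-0.43 and -0.48) and the alpha subunit psma8 (-0.32 and -0.31) were also lower in both experiments, but in the RA experiment each call survived the loss of only 1 of the 8 arrays. In the DAPT experiment the psmc6 call was lost without any of 3 of the 8 arrays and the psma8 call without any of 5. A fit of the DMSO groups of the DAPT experiment alone called 0 members (0.533% of all probe sets). The dimmer psmd1 set differed by -0.49 in the RA experiment and 0.46 in the DAPT experiment, but each call was lost without any of 6 of the 8 arrays (adjusted p up to 0.2183 and 0.155) and under the deposited scaling and median centring. The brighter set differed by -0.44 in the RA experiment, lost without DMSO 1.5 h replicate 3, without DMSO 3 h replicate 1 or 4 and under median centring. Also called in the RA experiment were psmb2, lower at 3 h, and psmd11b, higher. Each of these calls was lost without any of 5 of the 8 arrays (limma adjusted p up to 0.09551 and 0.0839).

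The pathway around the proteasome was followed in 3 lists, of 16 proteasome partners, 25 genes of ubiquitin and of vcp, the unfoldase that feeds substrates to the proteasome, and 30 chaperones, all tested. In wild type between 30 min and 1 h, 0 of 16 partners, 1 of 25 ubiquitin genes (ufd1l, a vcp cofactor, -0.54 ± 0.14, adjusted p = 0.017) and 1 of 30 chaperones (dnajb1a, a heat-induced cofactor of Hsp70, -1.14 ± 0.27, adjusted p = 0.006691) were called, all lower. Of all probe sets 4.37% were called. Between the same times in dnfgfr1 dnajb1a fell by 1.38 and the small lid subunit gene sem1 rose by 0.87 (adjusted p = 0.004103). Between 45 and 90 min 0 of 30 chaperones rose and 5 fell in gal4 (5.12% of all probe sets called), and 0 rose and 4 fell in notch1a-intra (6.35%), with medians of -0.045 and -0.03. Among them dnajb1b changed by -2.48 in gal4 and -2.15 in notch1a-intra, and of the partners zfand2a, which binds the proteasome under stress, by -1.55 and -1.18.

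In the Wnt groups, where 12.5%, 9.92% and 7.84% of all probe sets rose and 12.1%, 10.6% and 8.39% fell, of the partners 3 rose and 1 fell in dkk1 and in the libraries labelled DeltaTcf, and 2 rose and 1 fell in wnt8a. The assembly factor pomp, which matures the core particle, was higher by 0.78 ± 0.09, 0.80 ± 0.09 and 0.54 ± 0.09 (adjusted p = 1.508e-09, 2.121e-09 and 1.608e-05). The chaperone-like bag6, which hands misfolded proteins to the proteasome, was lower, at -0.90, -1.19 and -0.96. Of the 25 ubiquitin genes 4 rose and 11 fell, 3 and 9, and 3 and 7 in the same order. The ubiquitin chain elongation factor ube4b had -1.41, -1.48 and -1.29, vcp itself -1.10, -0.97 and -0.92, and the conjugating enzyme ube2d3 -1.06, -0.63 and -0.61. Of 30 chaperones 2 rose and 7 fell, 1 and 8, and 1 and 6. Mitochondrial hspd1 led with -0.81, -0.81 and -0.98.

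The lists were also set against wild type at 30 min, a choice made after seeing the data. Against this control 14.8% of all tested probe sets rose and 16.2% fell in dkk1. The shares were 11.8% and 13.4% in the libraries labelled DeltaTcf, and 12.2% and 13.9% in wnt8a. Of the partners 2 rose and 2 fell, 2 and 3, and 2 and 4 in the same order. Of the ubiquitin genes 1 rose and 9 fell, 1 and 7, and 1 and 6, and of the chaperones 2 rose and 10 fell, 1 and 10, and 1 and 8. The differences of pomp were then 0.56, 0.58 and 0.32, those of bag6 -0.85, -1.14 and -0.91, and those of ube4b -1.71, -1.79 and -1.60. All of these were called, as were those of vcp, ube2d3 and hspd1.

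Elsewhere the lists gave single genes. In notch1a-intra against gal4, vcp was higher by 0.80 at 45 min and 1.38 at 90 min (adjusted p = 0.001937 and 1.284e-08), with 3 of 25 ubiquitin genes higher and 1 lower at 45 min and 2 and 0 at 90 min, while 0 of 16 partners were called. Of all probe sets 4.09% were called at 45 min and 6.87% at 90 min. In dnfgfr1 against wild type, hsf1, the transcription factor of the heat-shock response, was higher by 2.06 at 30 min and 2.05 at 1 h, and the proteasome-binding scaffold gene ecpas by 0.61 and 0.57, the 1 partner called at each time. After DAPT pomp was higher by 0.48 at 1.5 h and 0.45 at 3 h (adjusted p = 0.002058 and 0.0101). After RA the ubiquitin-binding zfand5a was lower by a log2 difference of -1.10 at 1.5 h and -0.93 at 3 h (adjusted p = 0.002039 and 0.02402), the 1 partner called at each time. Of all probe sets 4.34% and 3.68% were called after 1.5 h and 3 h of RA, and 3% and 3.42% in dnfgfr1 at 30 min and 1 h.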

How the data were processed

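The deposited values are MAS5 intensities per probe set, made by the authors with MAS5 (version not given in the sources used here), per the submitters' processing notes. On every array their mean, with 2% trimmed at each end, was 150, and 13 arrays of the DAPT experiment were rounded to 1 decimal. After 115 control probe sets had been left out, 15502 remained, of which 10795 had 1 gene symbol, 135 several and 4572 none. All 61 members matched the RefSeq gene table (assembly GRCz12tu) by Entrez ID, and no symbol changed.

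The deposited intensities plus 16 were put on the log2 scale and quantile normalised, because array medians spanned 0.74. Probe sets above their array's median on at least 3 arrays (10126) were fitted with 19 group means in limma 3.58.1 (R 4.3.3, statmod 1.5.0; empirical Bayes with trend and robust settings). The 20 comparisons and 4 contrasts between times used Benjamini-Hochberg adjustment over all 10126 and a threshold of 0.05. The fit was tested on simulated data. No read depth exists for arrays, and the number of arrays limits the precision.

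Named were, in each comparison, up to 6 called members per direction by smallest p, the cutting subunits psmb5, psmb6 and psmb7 and called inducible beta genes. Where none was called, the member with the smallest p was named. The brightest probe set stood for a gene, with others beside it. List genes were up to 5 called ones per comparison by smallest p, given across comparisons. Members named beyond these counts were chosen after their values were seen. The members, lists and tests were chosen with earlier results of these data known. Replicate numbers are shared by groups. Deviations of same-numbered arrays correlated above 0.1 in all 4 pairs only between notch1a-intra and gal4 at 45 min (r from 0.21 to 0.31). There the numbers were taken as pairs from the data alone, and with them as a block 0 members were called, as without. Alternatives were the deposited scaling, median centring, a pseudocount of 1, no filter, array weights, and the compared groups alone with and without a replicate block. Others were wild type at 30 min as control, for the Wnt groups only, and each array left out in turn.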

Additional observations from a re-analysis of the deposited data

Results flagged for a closer look

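In notch1a-intra at 90 min the beta subunit psmb2 read 10.05 (10.055) in replicate 1 and 10.13 to 10.14 in the other arrays. The gap took up more of the group's range than is usual for 4 values. This was 1 of 79 groups of 4 arrays examined, where chance gives about 1 in 20.

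The effect of DAPT on psmd11b differed between 3 h and 1.5 h by 0.95 ± 0.21 (0.947, limma adjusted p = 0.005469), a call lost with array weights and in a fit of these groups alone. The change of psmb5 between 30 min and 1 h differed between dnfgfr1 and wild type by 1.18 ± 0.26 (1.176, limma adjusted p = 0.01178).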

How the results depend on the processing

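Of the 178 recomputed counts of called members 106 stayed within 1.5 times the value reported and 72 moved. Of 178 recomputed medians 165 stayed and 13 moved. A median stayed if its shift was no larger than the pooled SD of the array medians within the compared groups, so it could still change sign. Of 121 called member results 25 kept their call under every alternative, 54 did so without any single array, and 7 turned in sign, all against wild type at 30 min and none called there: psma1 (-0.027), psmc6 (-0.091) and psmd12 (-0.018) in dkk1, psma5 (-0.086), psmb2 (-0.11) and psmb5 (-0.07) in the libraries labelled DeltaTcf, and psmd6 (-0.032) in wnt8a. With that control the medians were -0.091 in dkk1, 0.037 in the libraries labelled DeltaTcf and 0.00 (0.001) in wnt8a. The cause of each change was not tested, except that the fits of the compared groups alone and those with arrays left out use fewer arrays.

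Shares of all probe sets called stand in brackets. With the deposited scaling the count was 0 for DAPT at 3 h (3.82%) and gal4 recovery (5.08%) and 1 for dnfgfr1 recovery (5.28%). The median of the RA effect was then 0.20. Median centring gave medians of -0.20 (RA 1.5 h, -0.205), 0.087 (RA 3 h), -0.01 (DAPT 1.5 h, -0.008), -0.15 (dnfgfr1 recovery), -0.056 (DMSO times of RA), -0.22 (DMSO times of DAPT, -0.225), 0.31 (RA effect) and -0.04 (DAPT effect). Its counts were 0 for DAPT 3 h (3.11%), dnfgfr1 at 30 min (2.97%) and gal4 recovery (4.08%). They were 1 for dnfgfr1 at 1 h (2.85%), dnfgfr1 recovery (4.83%), notch1a-intra recovery (6.85%) and DMSO of RA (4.05%). They were 2 for DAPT 1.5 h (3.24%) and notch1a-intra at 90 min (5.31%), and 3 for labelled DeltaTcf against dkk1 (2.27%). Under neither of these scalings did the median difference of all tested probe sets exceed 0.1 in size. For median centring this is largely fixed in advance. A pseudocount of 1 gave 2 for the DAPT effect (4.69%). Without the filter counts were 2 for DAPT 3 h (5.2%) and the DAPT effect (3.86%), and 0 for dnfgfr1 at 30 min (1.69%). They were also 0 for labelled DeltaTcf against wnt8a (1.39%) and gal4 recovery (2.73%), 1 for dnfgfr1 recovery (2.73%) and 4 for DMSO of RA (2.12%).

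Array weights gave, with the share of all probe sets called in brackets, 4 for RA 1.5 h (10.6%), 2 for DAPT 1.5 h (1.94%), 0 for DAPT 3 h, 3 and 7 for dnfgfr1 at 30 min and 1 h (8.50% and 5.88%), 12 for notch1a-intra at 45 min (1 higher, 11 lower; 26.2%), 25 for wnt8a (25.1%), 7 for dkk1 against wnt8a (5.97%), 3 for labelled DeltaTcf against wnt8a (4.31%), 7, 2 and 18 for dnfgfr1, gal4 and notch1a-intra recovery (11.2%, 5.04% and 34.6%), 16 and 2 for the DMSO times of RA and DAPT (12.6% and 1.18%), and 2, 0, 2 and 8 for the RA, DAPT, dnfgfr1 and notch1a-intra effects (3.58%, 0.415%, 1.39% and 13.2%), the last with a median of 0.15 (0.155). The compared groups alone gave 0 for RA 1.5 h (4.1%), DAPT 1.5 h (0.0691%), DAPT 3 h (0.77%), dnfgfr1 at 30 min (4.44%) and notch1a-intra at 90 min (3.25%). They also gave 0 for labelled DeltaTcf against wnt8a (3.4%), gal4 recovery (0.286%), notch1a-intra recovery (2.38%), DMSO of DAPT (0.533%) and the DAPT effect (0.109%). Counts were 1 for dnfgfr1 at 1 h (2.26%), 3 for labelled DeltaTcf against dkk1 (1.74%), 9 for wild-type recovery (4.45%) and 11 for DMSO of RA (8.6%).

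With the replicate number as a block, which pairs no arrays by the labels, counts were 16 for dkk1 (21.1% of all probe sets called), 14 for labelled DeltaTcf (18%), 10 for wnt8a (16.4%), 3 for dkk1 against wnt8a (2.52%), 2 for labelled DeltaTcf against dkk1 (1.97%), 5 for DMSO of RA (5.53%), 1 for dnfgfr1 at 1 h, dnfgfr1 recovery and the dnfgfr1 effect (1.37%, 1.66% and 0.257%), and 0 for the others, wild-type recovery among them. Without notch1a-intra 45 min replicates 2 and 4, 5 members were called at 45 min (11.7%) and 1 in recovery (1.84%).

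Leaving out single arrays gave counts of 0 to 2 (RA 1.5 h), 1 (RA 3 h), 2 to 4 (DAPT 1.5 h), 0 to 1 (DAPT 3 h), 0 to 1 and 2 to 4 (dnfgfr1 at 30 min and 1 h), 0 and 2 to 4 (notch1a-intra at 45 and 90 min), 19 to 22 (dkk1), 15 to 20 (labelled DeltaTcf), 10 to 16 (wnt8a), 3 to 5 (dkk1 against wnt8a), 0 to 2 and 3 to 6 (labelled DeltaTcf against wnt8a and dkk1), 6 to 16, 1 to 2, 0 to 1 and 1 to 3 (wild-type, dnfgfr1, gal4 and notch1a-intra recovery), 0 to 5 and 1 to 6 (DMSO of RA and DAPT), and 0, 1 to 3, 0 to 1 and 0 to 1 (RA, DAPT, dnfgfr1 and notch1a-intra effects). The median without single arrays ran from -0.116 to -0.054 for DMSO of RA, from 0.132 to 0.184 for the RA effect, from 0.024 to 0.074 for RA at 3 h and from 0.124 to 0.245 for the dnfgfr1 effect.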
